A study of Homo sapiens with 9 samples.

Results

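The mitochondrial genome of human cells encodes 37 genes, and all of them were found among the 62710 genes of the count table by the symbol prefix MT-. They comprise 13 mRNAs, 2 rRNAs and 22 tRNAs. RNA was measured by poly(A)-selected sequencing in wild-type cells of H9, a long-used line of human embryonic stem cells, with 3 libraries for each of 3 plate shapes. All cultures were grown on a Matrigel-coated silicone (PDMS) plate for 72 h in mTeSR1, a medium that maintains pluripotency, and then for 48 h in N2B27 medium with SB431542 and LDN. These inhibitors block SMAD signalling and direct stem cells towards neuroepithelium. For a further 24 h, still with both inhibitors, the plate was kept flat (the controls), curved concave or curved convex. The design asked how each shape differed from each other shape.

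Both strands of the circular mitochondrial DNA are transcribed as long precursors that carry many genes, and excision of the tRNAs, which lie between most of the other genes, releases the mRNAs and rRNAs. The mRNAs encode subunits of respiratory complexes I, III and IV and of ATP synthase, which work together with many nuclear-encoded subunits, and the rRNAs and tRNAs serve the mitochondrial ribosome. Since members share precursors, they are not independent measurements. Of the 37 genes, 28 are transcripts of the heavy strand, and 9 are transcripts of the light strand, namely MT-ND6 and 8 tRNAs.

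Libraries held between 49420082 and 64763412 counts. The labels give replicate numbers 1 to 3 without saying whether each is a culture of its own. The p-values therefore reflect the scatter of libraries alone, and that may be technical. In bulk RNA, fewer cells of a type and less RNA per cell cannot be told apart. The 8 early neuroectoderm markers summed to between 862 and 1536 CPM (counts scaled to a common library total) and the 6 pluripotency markers to between 2132 and 3451 CPM, while 6 mesoderm and endoderm markers summed to at most 12.2 CPM. The 6 non-neural ectoderm and amnion markers summed to between 276 and 547 CPM, mostly from the keratins KRT8 and KRT18. The 7 fibroblast, endothelial and blood markers summed to between 773 and 1620 CPM, mostly from the collagens COL1A1 and COL1A2, while DCN, PTPRC and HBG1 averaged at most 0.0679 CPM. That list also holds the endothelial markers PECAM1 and CDH5, and 4 of its 7 genes were abundant enough to be tested. Flat library 2 stood apart in the level of short against long nuclear transcripts. The median log2 deviation of transcripts under 1000 bases minus that of transcripts over 5000 bases was 0.78 in flat 2 and between -0.23 and 0.17 in the other 8 libraries, for the 95.1% of tested nuclear genes with a length. With lengths from principal transcripts alone, the definition tried first, these values were 1.29 and between -0.40 and 0.26. That first definition covered 67.3% of tested nuclear genes, and the wider one was chosen after the values of the first had been seen. Of the 4844 short genes of the wider definition, 916 are protein-coding, against 914 of 915 in the first.

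Mitochondrial genes together took 7.30%, 5.70% and 7.63% of library counts in flat libraries 1, 2 and 3. They took 6.57%, 7.77% and 10.5% in the concave libraries, and 7.63%, 7.9998% and 9.33% in the convex libraries. The lowest share was in flat 2 and the highest in concave 3. Group means were 6.88% ± 1.03 (SD, n = 3) for flat, 8.30% ± 2.04 for concave and 8.32% ± 0.892 for convex cultures. The 3 shapes did not differ beyond the spread between libraries (exact permutation test, two-sided, p = 0.393, Benjamini-Hochberg adjusted over 4 shares 0.686).

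The flat and convex shares did not overlap, but only just, with the highest flat value at 7.6312% and the lowest convex value at 7.6319%. The mean difference was 1.44 percentage points (exact permutation p = 0.1, the smallest that 3 against 3 libraries allow, adjusted p = 0.9 over 12 pairs). It was 0.852 without flat 2 and 0.937 without convex 3. With shapes permuted only within the replicate numbers, convex minus flat gave an exact permutation p of 0.25, the smallest that 8 arrangements allow. Concave cultures lay 1.42 percentage points above flat ones (exact permutation p = 0.4), and 0.292 without concave 3. Between libraries of the same number, concave minus flat was -0.736, 2.07 and 2.91 percentage points for numbers 1, 2 and 3, so that number 1 went the other way. Convex minus flat was 0.328, 2.30 and 1.70. Exact binomial 95% intervals of these shares were at most 0.0167 percentage points wide. They cover counting error only.

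**Figure D1:**
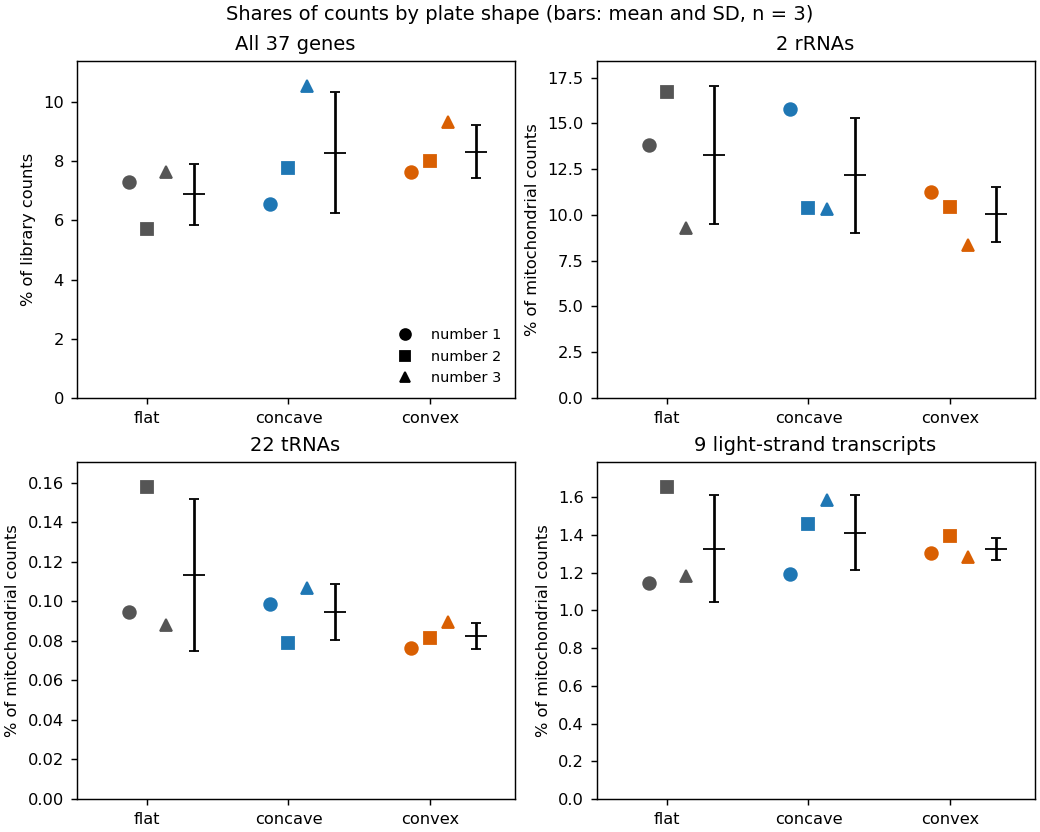
Share of counts in each library, by plate shape, with the mean and SD of 3 libraries beside the points; the vertical axes give percent of all library counts (all 37 genes) or percent of mitochondrial counts (rRNAs, tRNAs and light-strand transcripts). Concave 3 has the highest mitochondrial share, 10.5%, and flat 2 the lowest, 5.70%, as well as the highest rRNA, tRNA and light-strand shares.

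The mRNAs made up between 83.1% and 91.5% of mitochondrial counts. On a scale of CPM per kilobase of annotated gene length, averaged over the 9 libraries, the mRNAs of the 3 core subunits of complex IV, cytochrome c oxidase, led. MT-CO3 stood at 14590, MT-CO2 at 13398 and MT-CO1 at 10516. The ATP synthase mRNA MT-ATP6 followed at 7968 and the complex I mRNA MT-ND4 at 6116. The lowest mRNAs were MT-ND3 at 2648, MT-ND6 at 1897 and MT-ND5 at 1702, all for complex I subunits. MT-CYB, the only mitochondrial mRNA for complex III, stood at 3445. MT-ATP6 and MT-CO3 are neighbours that share 1 base, and MT-CO3 was the higher of the pair in every shape, with means of 14448, 15201 and 14121 against 7112, 8188 and 8604 in flat, concave and convex cultures.

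**Figure D2:**
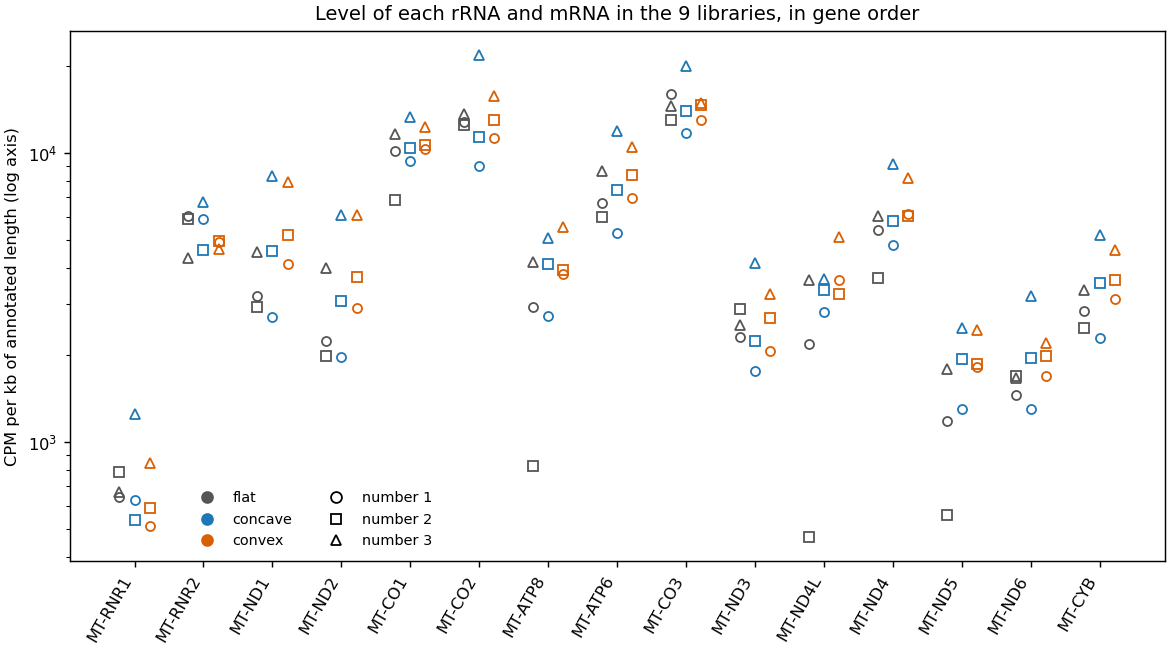
Level of the 2 rRNAs and 13 mRNAs in order along the genome, in CPM per kilobase of annotated length on a log axis; colour gives the plate shape and symbol the replicate number, 1 point per library. Concave 3 is the highest library for 11 of the 13 mRNAs, and MT-ATP8, MT-ND4L and MT-ND5 are far lower in flat 2 than in the other 8 libraries.

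No mitochondrial gene passed the test in any comparison of shapes. Of the 37 genes, 18 were abundant enough to be tested, namely the 13 mRNAs, the 2 rRNAs and 3 tRNAs. At an edgeR adjusted p under 0.05, 0 of 18 were called in concave against flat, in convex against flat and in concave against convex cultures, where 0% of the 23075 genes tested were called. At an unadjusted p under 0.05, 0 of the 18 passed in each comparison, against 4.54%, 9.25% and 0.282% of all genes tested. Same-numbered libraries deviated together for convex and flat cultures. With the number as a block, 4 of 18 members had an unadjusted p under 0.05 in convex against flat cultures, namely MT-ND1, MT-ND2, MT-ND4L and MT-ND5, beside 18.3% of all genes, and their edgeR adjusted p was 0.264. In concave against flat cultures 1 member, MT-ND5, did so with the block, beside 8.87% of all genes (edgeR adjusted p = 0.506). In concave against convex cultures 0 of 18 members did so with the block, beside 147 of 23075 genes. DESeq2 also called 0 of the members in each.

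MT-ND5, a subunit of the proton-pumping arm of complex I, was the only member whose convex libraries all lay above the flat ones, as did those of 8.91% of all genes tested. Its level was 2141, 1007 and 3223 CPM in flat libraries 1, 2 and 3. It was 2353, 3489 and 4494 CPM in the concave and 3284, 3366 and 4399 CPM in the convex libraries. Flat 2 was the lowest library, flat 3 lay just under convex 1, and concave 1 lay inside the flat range. The log2 fold change was 0.79 (SE 0.38) in convex against flat (edgeR adjusted p = 0.513) and 0.70 (SE 0.38) in concave against flat cultures (edgeR adjusted p = 0.841). With 1 library left out these ran from 0.45 without flat 2 to 1.21 without flat 3, and from 0.37 without flat 2 to 1.13 without flat 3. Concave against flat, 0 members had groups that did not overlap, where 3.78% of genes lay wholly higher and 2.96% wholly lower. No member lay wholly lower in convex than in flat cultures, where 7.76% of genes did. Concave against convex, 0 members lay wholly apart, where 1.49% of genes lay wholly higher and 2.08% wholly lower.

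Most mRNAs had higher fitted means on the curved plates, but the size of this depended on single libraries. In concave against flat cultures all 13 had a log2 fold change above 0, with a median of 0.38, beside 51.6% of all genes above 0 and a median of 0.014 over all genes. Without concave 3 the median was 0.02, with 8 above 0 and 5 below. Without flat 2 it was 0.17. In convex against flat cultures 12 of 13 were above 0, with a median of 0.39, beside 50.8% and 0.007 for all genes. MT-CO3 was the exception at -0.03, and stood at 0.01 where libraries were scaled by their size alone. The median was 0.28 without flat 2 and 0.23 without convex 3. Between libraries numbered 1, 2 and 3 the medians were -0.18, 0.60 and 0.59 in concave against flat, with 2, 11 and 13 mRNAs above 0, and 0.18, 0.63 and 0.40 in convex against flat cultures, with 10, 12 and 13. Both comparisons share the flat libraries. In concave against convex cultures 4 of 13 were above 0, beside 49.3% of all genes, with a median of -0.05. Here the direction turned on single libraries. The median was -0.36 with 0 of 13 above 0 without concave 3, 0.17 with 12 above 0 without concave 1 and 0.13 with 12 above 0 without convex 3. Between libraries numbered 1, 2 and 3 it was -0.38, -0.06 and 0.16.

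**Figure D3:**
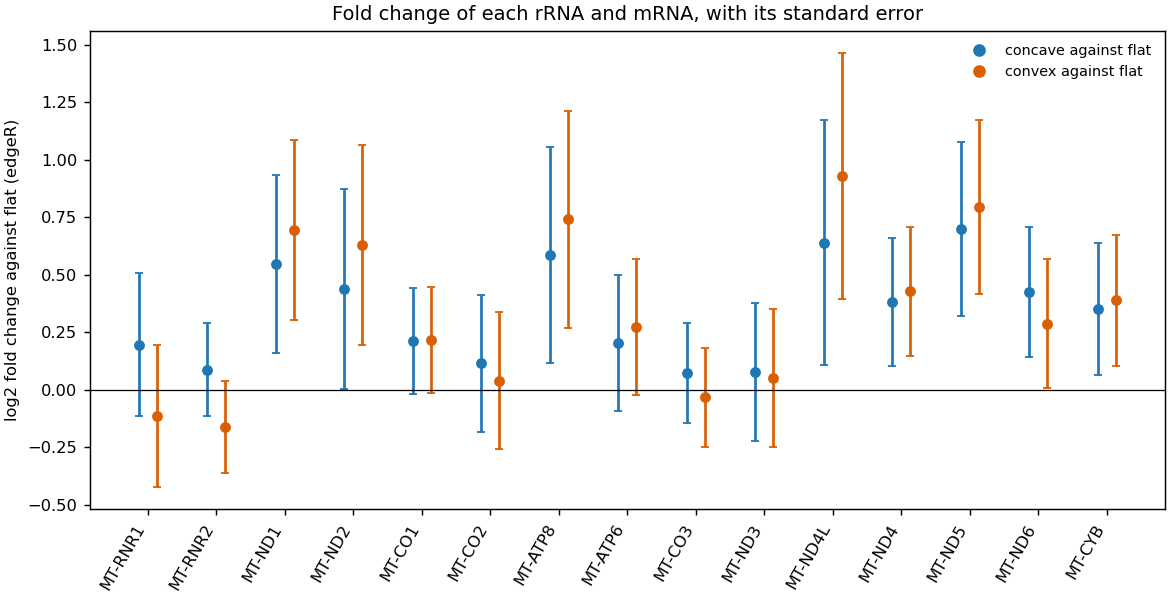
Log2 fold change of each rRNA and mRNA against flat cultures, from edgeR, with bars of 1 standard error; blue is concave and orange is convex. None of these passed an adjusted p of 0.05, and the highest is MT-ND4L in convex against flat cultures, at 0.93, which is 0.45 without flat 2 and 1.58 without flat 3.

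Some mRNAs are bicistronic, made as 1 RNA with overlapping reading frames. MT-ATP8 and MT-ATP6, both for ATP synthase, share 46 bases, and MT-ND4L and MT-ND4, both for complex I, share 7. The shorter frames are shown because their counts went apart from their partners' in flat 2; capitals mark the shared bases (GRCh38 with GENCODE v29, plus strand, MT-ATP8 at chrM:8366-8572 and MT-ND4L at chrM:10470-10766).
MT-ATP8: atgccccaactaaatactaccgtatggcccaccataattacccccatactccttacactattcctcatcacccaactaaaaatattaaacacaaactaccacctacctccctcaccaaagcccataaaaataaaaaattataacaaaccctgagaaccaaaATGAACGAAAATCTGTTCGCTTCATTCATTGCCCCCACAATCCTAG
MT-ND4L: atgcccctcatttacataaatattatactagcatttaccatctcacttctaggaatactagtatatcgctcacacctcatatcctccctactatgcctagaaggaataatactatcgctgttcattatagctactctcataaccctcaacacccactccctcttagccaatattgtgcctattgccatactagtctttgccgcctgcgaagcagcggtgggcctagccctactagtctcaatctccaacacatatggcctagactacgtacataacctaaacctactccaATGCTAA

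The level of MT-ATP8 was 605, 171 and 866 CPM in flat, 565, 851 and 1048 CPM in concave and 788, 810.03 and 1146 CPM in convex libraries 1, 2 and 3. The level of MT-ND4L was 648, 139 and 1078 CPM in flat, 837, 990 and 1081 CPM in concave and 1079, 960.1 and 1513 CPM in convex libraries. For both, flat 2 was far below every other library, and the flat range took in values of the other shapes. Against the mean of the other 8 libraries, flat 2 had a log2 difference of -2.29 for MT-ATP8 and -2.88 for MT-ND4L, but of -0.46 for MT-ATP6 and -0.81 for MT-ND4. How reads over the shared bases were assigned is not given in the sources used here.

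Per base, the ratio of MT-ATP8 to MT-ATP6 counts was 0.138 in flat 2 and between 0.426 and 0.555 in the other 8 libraries. The ratio of MT-ND4L to MT-ND4 was 0.128 in flat 2 and between 0.400 and 0.624 elsewhere. The short frame was thus below its partner per base in every library, most of all in flat 2. The 3 shapes did not differ beyond the spread in either ratio (exact permutation p = 0.179 and 0.332, and 0.514 and 0.6 without flat 2). These ratios were chosen after the values were seen.

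Among the other 11 mRNAs, the flat 2 difference went with gene length. MT-ND3, the shortest of these, lay above the mean of the other 8 libraries by 0.13 on the log2 scale, though below concave 3 and convex 3, while MT-ND5, the longest at 1812 bases, lay at -1.73. MT-CO2 was at -0.11, MT-CO3 at -0.19 and MT-CO1 at -0.68. Over these 11 genes, Pearson's r between log2 length and log2 deviation was -0.86 (Spearman's rho -0.84) in flat 2. In the other libraries r was between -0.28 and 0.85, the latter in convex 1. Deviations are from the mean of all 9 libraries, so the values of the other libraries also depend on flat 2. MT-ATP8 and MT-ND4L, the 2 shortest, were set apart after their values were seen. With them, r over 13 genes in flat 2 was 0.30 (Spearman's rho -0.12). These are descriptions across genes of 1 library that share precursors and depth. The part of transcript length or RNA quality in the flat 2 values was not tested.

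**Figure D4:**
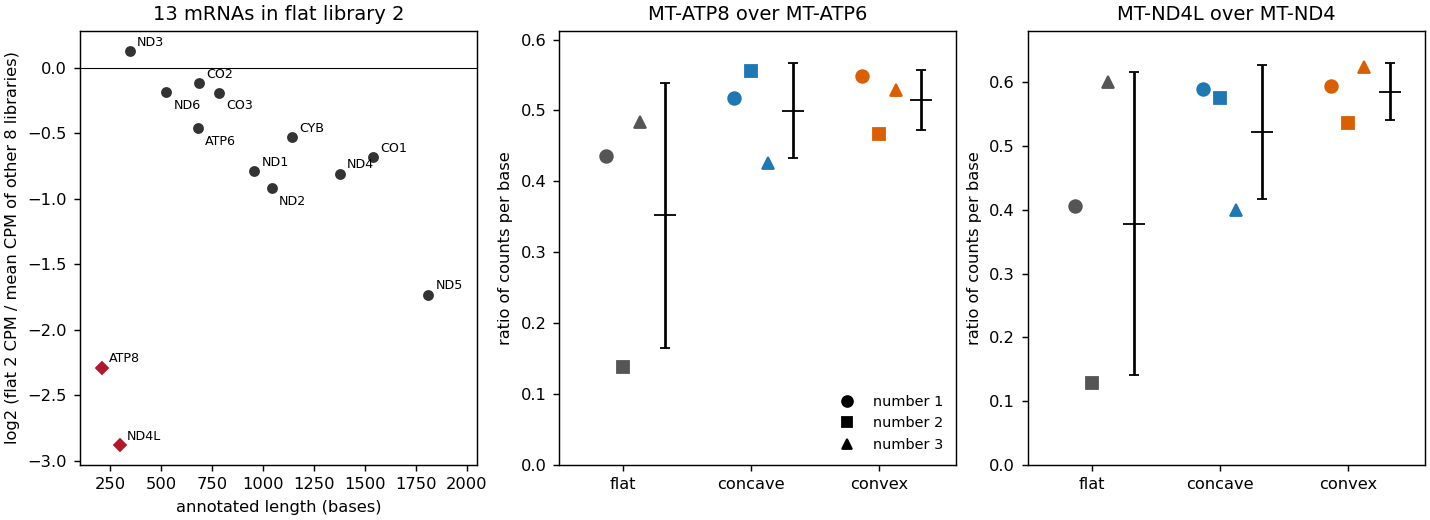
Left, log2 ratio of the flat 2 level to the mean of the other 8 libraries for the 13 mRNAs against their annotated length in bases, with MT-ATP8 and MT-ND4L as red diamonds. Middle and right, the ratio of counts per base of MT-ATP8 to MT-ATP6 and of MT-ND4L to MT-ND4 in each library, with mean and SD of 3 libraries; flat 2 lies at 0.138 and 0.128, under all other libraries.

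The rRNAs form the small (MT-RNR1) and large (MT-RNR2) subunits of the mitochondrial ribosome. MT-RNR2 held between 89.8% and 94.0% of rRNA counts. Its level was 9411, 9171 and 6716 CPM in flat, 9205, 7181 and 10487.5 CPM in concave and 7657, 7706 and 7255 CPM in convex libraries 1, 2 and 3. The level of MT-RNR1 was 615, 750.5 and 640.5 CPM in flat, 601, 511 and 1187 CPM in concave and 487, 561 and 806 CPM in convex libraries. Concave 3 was highest for both, and all 3 shapes overlapped. Log2 fold changes against flat were 0.09 and -0.16 for MT-RNR2 and 0.20 and -0.11 for MT-RNR1, in concave and convex cultures (edgeR adjusted p from 0.756 to 0.948).

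The rRNAs took 13.8%, 16.7% and 9.28% of mitochondrial counts in flat libraries. They took 15.8%, 10.4% and 10.3% in concave and 11.3%, 10.5% and 8.38% in convex libraries. Flat 2 was highest and convex 3 lowest, and the shapes overlapped (exact permutation p = 0.514). These values come after poly(A) selection, so rRNA recovery depends on the short tails of these RNAs, and they are not the share of rRNA in the cells. Per base, MT-RNR2 exceeded MT-RNR1 in each library, 5.41 to 6.42 times in libraries numbered 3 and 7.48 to 9.62 times in those numbered 1 and 2. The ratio was lowest in number 3 within each shape and did not differ among shapes (exact permutation p = 0.982). It was chosen after its values were seen.

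Of the 22 tRNAs, 18 were at 0 in all 9 libraries and 4 had counts in every library. In a library, a count of 0 allows up to 3 counts, here 0.0463 to 0.0607 CPM. Mature tRNAs, here 59 to 75 bases long, carry no poly(A) tail and are poorly held by this protocol, so the counts say nothing of tRNA levels in the cells. The 4 with counts are MT-TP, MT-TN, MT-TC and MT-TF, which carry proline, asparagine, cysteine and phenylalanine. All but MT-TP were singled out after their values were seen. Their sequences are shown with the anticodon, as found by the pairing of its stem, in capitals, beside MT-TK, the lysine tRNA, which was at 0. In GRCh38 with GENCODE v29 they lie at chrM:15956-16023, minus strand, chrM:5657-5729, minus, chrM:5761-5826, minus, chrM:577-647, plus, and chrM:8295-8364, plus.
MT-TP: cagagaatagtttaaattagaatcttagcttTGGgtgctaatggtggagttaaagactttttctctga
MT-TN: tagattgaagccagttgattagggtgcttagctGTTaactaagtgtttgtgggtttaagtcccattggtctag
MT-TC: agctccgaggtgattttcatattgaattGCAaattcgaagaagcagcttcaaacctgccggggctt
MT-TF: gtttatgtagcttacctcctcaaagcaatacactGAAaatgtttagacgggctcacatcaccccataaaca
MT-TK: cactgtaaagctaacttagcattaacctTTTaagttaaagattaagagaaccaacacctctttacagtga

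These 4 tRNAs are the ones with the widest stretches of unannotated DNA beside them. MT-TF and MT-TP border the non-coding control region of 1122 bases, and MT-TN and MT-TC lie on either side of a gap of 31 bases. Among the tRNAs at 0, the widest such gap was 25 bases, beside MT-TK. These gaps count genes of either strand. To genes of its own strand alone, MT-TQ has gaps of 4874 and 1186 bases and MT-TS1 of 1554 and 6634 bases, and both were at 0. Most of the others touch a neighbouring gene or lie within a few bases of one. Whether reads spanning 2 genes were dropped is not given in the sources used here, so the counting and the RNA cannot be told apart.

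MT-TP held between 92.9% and 97.5% of tRNA counts. Its level was 65.3, 86.8 and 67.3 CPM in flat, 58.4, 56.1 and 118 CPM in concave and 52.3, 61.3 and 83.4 CPM in convex libraries 1, 2 and 3. Concave 3 was highest, and the shapes overlapped. MT-TN ranged from 2.01 to 5.79 CPM and MT-TC from 0.106 to 0.715 CPM. MT-TF ranged from 0.0153 to 0.168 CPM, near the limit that a count of 0 allows. In CPM all 3 were highest in flat 2, the smallest library. In raw counts only MT-TN was, at 275. MT-TC had 34 counts in flat 2 and 36 in flat 1, and MT-TF had 8 in flat 2 and 8 in flat 3. The tRNAs together took between 0.0764% and 0.158% of mitochondrial counts, and the 3 shapes did not differ beyond the spread (exact permutation p = 0.321).

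Among light-strand transcripts, MT-ND6, a complex I subunit and the only light-strand mRNA, held between 90.5% and 94.6% of counts. Its reading frame has 35.6% G and 7.05% C, while the 12 heavy-strand mRNAs have 6.28% to 16.2% G and 29.5% to 36.0% C. Its level was 761, 887 and 868 CPM in flat, 680.2, 1022 and 1675 CPM in concave and 887, 1037 and 1148 CPM in convex libraries. Concave 1 was lowest and concave 3 highest, so the concave libraries spanned those of both other shapes. The log2 fold change was 0.43 (SE 0.28) in concave and 0.29 (SE 0.28) in convex against flat cultures (edgeR adjusted p = 0.841 and 0.686). The concave value was 0.02 without concave 3 and 0.68 without concave 1, and the convex value ran from 0.20 to 0.37 with 1 library left out.

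Light-strand transcripts took 1.15%, 1.65% and 1.18% of mitochondrial counts in flat libraries. They took 1.19%, 1.46% and 1.58% in concave and 1.30%, 1.39% and 1.28% in convex libraries. The flat range held every value of the other shapes, and the 3 shapes did not differ beyond the spread (exact permutation p = 0.829). The kit keeps strand, but the setting used for counting is not given in the sources used here, so MT-ND6 reads and reads from the opposite strand cannot be told apart.

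In 10 of the 13 mRNAs, library 3 was the highest of its shape in all 3 shapes, as it was in 15.8% of all genes tested. The exceptions were MT-CO3, MT-ND3 and MT-ND6, and 0 of the 2 rRNAs showed this order. The mitochondrial share of library counts averaged 7.17%, 7.16% and 9.17% in numbers 1, 2 and 3. This share did not differ among numbers beyond the spread (exact permutation within shapes, p = 0.167, adjusted over 4 shares 0.333). In an edgeR F test among numbers, with shape in the model, 2 of the 18 tested members were called, both higher in number 3. Of all genes 11.8% were called, a share near that of the members, with 5.95% higher and 5.81% lower in number 3.

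The 2 called genes, MT-ND1 and MT-ND2, both encode membrane subunits of complex I and lie next to each other but for 3 tRNAs. MT-ND1 was at 3044, 2798 and 4328 CPM in flat, 2582, 4347 and 7936 CPM in concave and 3920, 4957 and 7587 CPM in convex libraries 1, 2 and 3. MT-ND2 was at 2313, 2063 and 4152 CPM in flat, 2048, 3183 and 6321 CPM in concave and 3008, 3865 and 6310.2 CPM in convex libraries. Library 3 was highest in each shape for both genes. Number 3 lay above the mean of numbers 1 and 2 by 0.86 for MT-ND1 (edgeR adjusted p = 0.0307) and by 1.04 for MT-ND2 on the log2 scale (edgeR adjusted p = 0.00999). Leaving out 1 library gave between 0 and 9 called members: 9 without flat 2, 5 without flat 3, 1 without concave 1, concave 3 or convex 2, and 0 without convex 1 or convex 3. Calls over all genes moved too, to 4999 of 23755 tested without flat 2 and 2335 of 23822 without flat 3. They were 1004 of 23680 without concave 1, 1454 of 23825 without concave 3 and 1150 of 23770 without convex 2. Without convex 1 and convex 3 they were 1043 of 23709 and 352 of 23713.

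The libraries numbered 3 also differed in culture markers. Pluripotency markers summed to 3319, 3451 and 3417 CPM in flat, concave and convex 3, and to between 2132 and 2485 CPM in the other 6 libraries. Early neuroectoderm markers summed to 1039, 976 and 862 CPM in number 3, and to at least 1314 CPM elsewhere. In the F test among numbers, 5 of 6 pluripotency markers were called higher and 7 of 8 neuroectoderm markers lower in number 3, beside 5.95% and 5.81% of all genes. Mesoderm and endoderm markers summed to 7.24, 7.82 and 12.2 CPM in flat, concave and convex 3 and to between 0.803 and 1.70 CPM elsewhere, with 1 of 3 tested called higher. Of the non-neural ectoderm and amnion markers 1 of 3 tested was called higher, and of the fibroblast, endothelial and blood markers 1 of 4 was called higher and 2 lower. The part of these markers in the mitochondrial values was not tested.

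**Figure D5:**
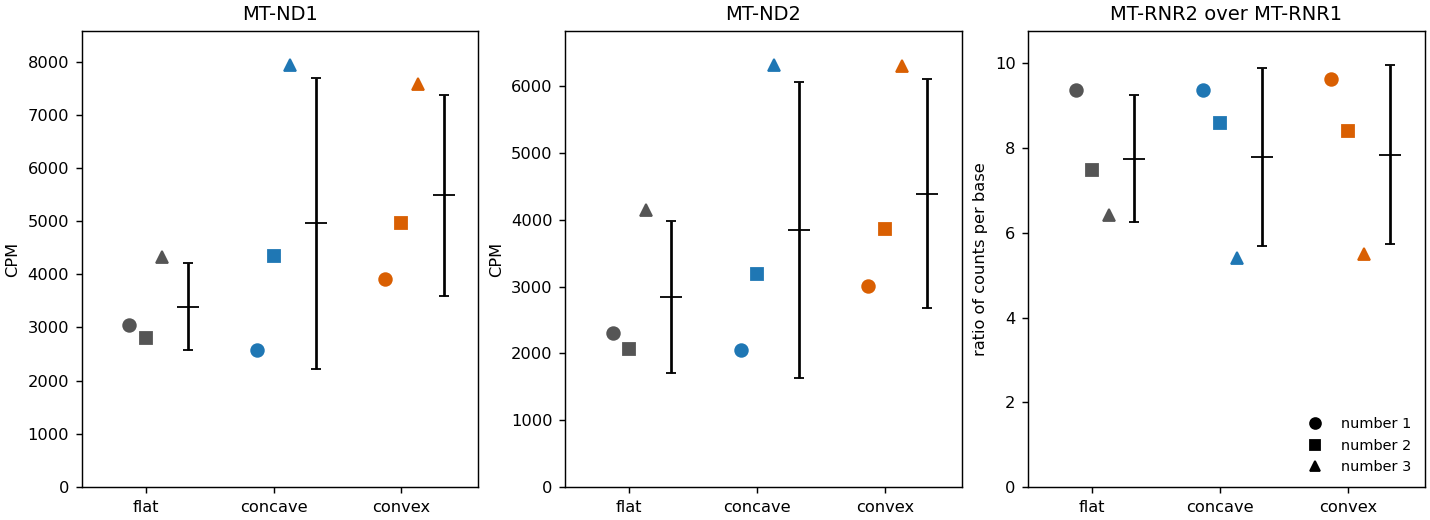
MT-ND1 and MT-ND2 in CPM and the ratio of MT-RNR2 to MT-RNR1 counts per base, in each library by plate shape, with mean and SD of 3 libraries. In every shape the library numbered 3 (triangle) is highest for both mRNAs and lowest for the rRNA ratio, at 5.41 to 6.42.

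The nuclear genes that copy, transcribe and process mitochondrial DNA and RNA were examined as 6 lists with 69 genes, all tested. Against flat cultures 28 were above 0 and 41 below in concave, with a median log2 fold change of -0.08, and 33 above and 36 below in convex cultures, with a median of -0.03. With scaling by library size alone the splits were 33 to 36 and 38 to 31. None of the 69 was called by edgeR, with 3 and 4 at an unadjusted p under 0.05, beside 4.54% and 9.25% of all genes. POLRMT, the mitochondrial RNA polymerase, had log2 fold changes of -0.15 and -0.13 in concave and convex against flat cultures. TFAM, which packages mitochondrial DNA and helps start transcription, had 0.04 and 0.20. TFB2M, the other initiation factor, had -0.11 and -0.04.

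TRMT10C, part of the mitochondrial RNase P that cuts before tRNAs, had -0.19 and -0.22, and ELAC2, which cuts after them, -0.17 and -0.16. HSD17B10, another subunit of that RNase P, had -0.65 and -0.64 (edgeR adjusted p = 0.841 and 0.513). It stood at 200.5 CPM in flat 2 and between 79.7 and 119 CPM in the other 8 libraries. LRPPRC, which stabilises mitochondrial mRNAs, had 0.07 and 0.07, and its partner SLIRP -0.47 and -0.56 (edgeR adjusted p = 0.841 and 0.513). SLIRP stood at 139 CPM in flat 2 and between 58.6 and 90.7 CPM in the other 8 libraries. Other genes had unadjusted edgeR p-values among the smallest of the 69. Of the 69, only 3 in concave and 4 in convex against flat cultures were under 0.05. These other genes were DGUOK (-0.56 and -0.64), a kinase for DNA precursors, MRPL12 (-0.82 and -0.71), a ribosomal protein, RPUSD3 (-0.41 and -0.45), a pseudouridine synthase, and POLG2 (0.31 and 0.33), a subunit of the DNA polymerase. Of these, DGUOK, MRPL12 and RPUSD3 were also highest in flat 2.

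In the F test among replicate numbers, 7 of the 69 were called by edgeR, near the 11.8% of all genes. The 6 higher in number 3 were the RNA methyltransferases METTL8 (log2 difference 1.13) and MRM1 (0.90), the pseudouridine synthase PUS1 (0.86), the coactivator PPRC1 (0.83), the DNA helicase TWNK (0.51) and TFB2M (0.46). MTERF2, of the transcription termination factor family, was lower, at -0.61. Their edgeR adjusted p-values ran from 0.00340 for METTL8 to 0.0461 for TFB2M.

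Nuclear genes for subunits of the same respiratory complexes lay on the other side of 0 from most mitochondrial mRNAs. Of 68, 66 were below 0 and 2 above in concave against flat cultures, with a median of -0.53, and 65 below and 3 above in convex against flat cultures, with a median of -0.61. Of all genes, 51.6% and 50.8% were above 0. Without flat 2 the medians were -0.18 and -0.28, with 62 and 64 below 0. None of the 68 was called by edgeR, with 32 and 46 at an unadjusted p under 0.05, beside 4.54% and 9.25% of all genes. Both counts are from the fit with flat 2 included. Flat 2 had the highest summed level for each complex, at 3396, 1501, 3072 and 3536 CPM for complexes I, III, IV and V. The other 8 libraries lay at 1618 to 2073, 741 to 1014, 1124 to 1770 and 1884 to 2509 CPM.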

How the data were processed

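RNA of 9 libraries was measured, 3 for each plate shape. The authors deposited whole-number counts of reads per gene for each library. Per the submitters' processing notes, HISAT2, featureCounts and GRCh38 were used; versions, annotation release, strand setting and the treatment of multi-mapping reads were not given in the sources used here. Reads from nuclear copies of mitochondrial DNA cannot be separated from mitochondrial ones. The table held 0 other columns of per-sample values. Groups and numbers came from the labels. Positions, lengths and sequences came from GENCODE v29.

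Genes were filtered with filterByExpr, scaled by TMM and tested by edgeR's quasi-likelihood test (edgeR 4.0.16, R 4.3.3) over 23075 genes, with Benjamini-Hochberg adjustment at 0.05. Fold changes are log2, and levels are CPM on TMM-scaled library sizes, while shares use library totals. Shares and ratios were compared by exact permutation tests over libraries, and all tests were two-sided. The edgeR fit of shapes without a block was tested on simulated counts, where libraries of a group differed by independent scatter alone. The F test among replicate numbers was not part of that simulation. Alternatives were DESeq2 1.42.0, limma 3.58.1 voom, no filter, other scalings, a replicate block and each library left out.

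The members and lists were chosen with earlier results of these data known. Members were named if mRNA, rRNA or a tRNA averaging at least 5 CPM; 7 nuclear genes for mitochondrial RNA were always named, with genes of the lists that were called or of smallest p against flat cultures, and the 3 nuclear copies of highest mean CPM. Correlations of same-numbered deviations were 0.38, 0.02 and 0.34 for concave and flat, 0.37, 0.40 and 0.62 for convex and flat, and 0.58, 0.29 and 0.61 for concave and convex libraries. With 1 value under 0.1, the numbers were not taken to pair concave with flat libraries, while they were for the other pairs of shapes. Fold changes and p-values of all pairs are from the fit without the block unless the block is named. With shapes permuted within numbers, exact permutation p among the 3 shapes was 0.222, 0.444, 0.5 and 0.833. These values are for the mitochondrial, rRNA, tRNA and light-strand shares. Chi-square per degree of freedom between libraries of a group was at least 19.7, so none was the same library deposited again. Repeat libraries of 1 culture are not told apart by this.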

Additional observations from a re-analysis of the deposited data

How the results depend on the processing

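No shape comparison called a mitochondrial gene under any alternative run. Genes called numbered 0 in every shape comparison except 1 in convex against flat cultures by DESeq2. Among replicate numbers, genes called were 4087 of 41037 without a filter, 4465 of 23075 by DESeq2 and 352 to 4999 with 1 library left out. Members called were 5 of 19, 6 of 18 and 0 to 9 of 18. Without a shape term, 2597 of 23075 genes and 1 of 18 members were called. With the replicate block, medians of the 13 mRNAs were 0.35 in concave and 0.37 in convex against flat cultures, MT-ND3 stood at -0.0150 and MT-TP at -0.00201 in concave against flat cultures, and it changed no call. By voom these genes were at -0.0175 and -0.000787. MT-CO3 in convex against flat cultures was 0.0124 with scaling by library size alone. The mitochondrial share in concave minus convex cultures was -0.0241 percentage points of library counts, and 0.000657 relative to nuclear counts. With 1 library left out, the difference in the share of library counts ranged from -1.15 to 0.840 percentage points. The differences in concave minus flat cultures ranged from -3.13 to 0.594 for the rRNA share and from -0.0314 to 0.00347 for the tRNA share. Those of the light-strand share ranged from -0.00604 to 0.248 in concave minus flat, from -0.0920 to 0.162 in convex minus flat and from -0.000487 to 0.195 in concave minus convex cultures. The rRNA share differed by 4.32 among means of the numbers (exact permutation p = 0.194). With 1 library left out this was 3.24 to 5.50, with exact permutation p = 0.0278 without flat 2 and 0.111 to 0.472 without each of the others. With 1 library left out, log2 fold changes in concave against flat cultures ranged from -0.27 to 0.42 for MT-RNR1, -0.0623 to 0.23 for MT-RNR2, -0.12 to 0.81 for MT-ND2, -0.35 to 0.35 for MT-CO2, -0.17 to 0.43 for MT-ATP6, -0.17 to 0.22 for MT-CO3, -0.37 to 0.30 for MT-ND3 and -0.36 to 0.27 for MT-TP. In convex against flat cultures they ranged from -0.35 to 0.0223 for MT-RNR1, -0.10 to 0.14 for MT-CO2, -0.11 to 0.0440 for MT-CO3 and -0.11 to 0.20 for MT-ND3. Depth was not the limit for mRNAs and rRNAs, whose spread between libraries exceeded counting error. The cause of these shifts was not tested.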

Other observations

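Nuclear copies of mitochondrial genes, which are pseudogenes in nuclear DNA with sequences close to the mitochondrial ones, are listed 404 times in the table, and 17 were abundant enough to be tested. They held between 0.0820% and 0.213% of library counts, or 1.44 to 2.06 for each 100 mitochondrial counts. MTATP6P1 was highest, at 902, 701 and 1145 CPM in flat, 681 to 1607 CPM in concave and 1001 to 1396 CPM in convex libraries. MTND2P28 ranged from 50.9 to 432 CPM and MTCO1P12 from 47.0 to 132 CPM. Flat 2 was the lowest library for MTND2P28 and concave 3 the highest for MTCO1P12. Of the 17, 15 were above 0 in concave against flat cultures, with a median log2 fold change of 0.66 (9 of 18 tested and -0.03 without concave 3), and 13 in convex against flat cultures, with a median of 0.34. Of all genes, 51.6% and 50.8% were above 0. None of the 17 was called by edgeR, with 0 and 2 at an unadjusted p under 0.05, beside 4.54% and 9.25% of all genes. Reads of these copies and of mitochondrial RNA cannot be told apart here.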
